A study of Bos taurus with 14 samples.

Results

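miR-320a (bta-miR-320a), the bovine member of the miR-320 family with lines in the table, was found in milk small extracellular vesicles (sEVs) of every cow, and its level in cows fed inulin could not be separated from that in control cows. The miR-320 entries were taken as every line of the deposited table whose miRNA name starts with miR-320. These were 2 of the 350 miRNA/precursor lines, miR-320a/mir-320a-1 and miR-320a/mir-320a-2, and their counts were equal in 14 of 14 cows. They were therefore treated as 1 set of reads, 1 of the 239 distinct count sets and 1 of the 268 mature miRNA of the table. The length listed for miR-320a was 22 nt.

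The study used 14 lactating Holstein cows, all with subclinical mastitis, a mammary inflammation without visible signs. The control group (n = 7) received a total mixed ration, and the inulin group (n = 7) received the same ration with 300 g/d of inulin, a plant fructan used as a prebiotic, over 5 wk of treatment after an adaptation of 1 wk. Milk from 3 milkings of the last day was mixed for each cow, sEVs were isolated, and their small RNA was sequenced as 1 library per cow. No cow without mastitis was included, and the ages of the cows are not given in the labels. The total miRNA count of a cow, summed over all miRNA/precursor lines, ranged from 4165 to 415020. Reads of a miRNA with several precursor lines can enter it more than once. Every interval of a share given here covers counting error only and takes this total as independent reads.

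Most miRNA are cut from a long primary transcript by Drosha in the nucleus and then from a hairpin by Dicer in the cytoplasm. The mir-320 hairpin is the textbook case of another route, since its transcript begins at the hairpin itself, carries a cap, leaves the nucleus without a Drosha cut and is cut by Dicer only. It is thus the Drosha step and not the Dicer step that is unusual. The mature miR-320a strand comes from the 3′ arm of the hairpin and is found in many tissues and in circulating vesicles. In RefSeq's annotation of ARS-UCD2.0, the MIR320A-1 gene lies outside protein-coding genes with POLR3D, a subunit gene of RNA polymerase III, as its nearest neighbour, whereas MIR320A-2 lies within RNF180, a ubiquitin ligase gene, on another chromosome. The annotation also holds MIR320B, which has no line in the table. Since both miR-320a precursors give the same mature reads, the counts cannot tell which locus was transcribed.

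The reads of miR-320a numbered 11823 over all cows. Among control cows the count had a lowest value of 37, a median of 485 and a highest value of 3185. Among inulin cows the lowest was 100, the median 588 and the highest 2147. As these counts follow the depth of each library, the level was taken as the percentage of the total miRNA count of the cow. Among control cows this share was lowest in cow 7 at 0.160% (95% Wilson interval 0.116% to 0.220%), had a median of 0.741% and was highest in cow 2 at 1.18% (0.891% to 1.55%). Among inulin cows it was lowest in cow 3 at 0.286% (0.235% to 0.348%), had a median of 0.810% and was highest in cow 4 at 1.40% (1.22% to 1.60%). The groups overlapped almost completely, with both low and high cows in each. Control cows 1, 3, 4 and 5 lay close together, from 0.671% to 0.767%, and control cows 6 and 7 lay below them. Inulin cows 2 and 3, at 0.334% and 0.286%, lay below the other 5, which held from 0.606% to 1.40%.

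**Figure D1:**
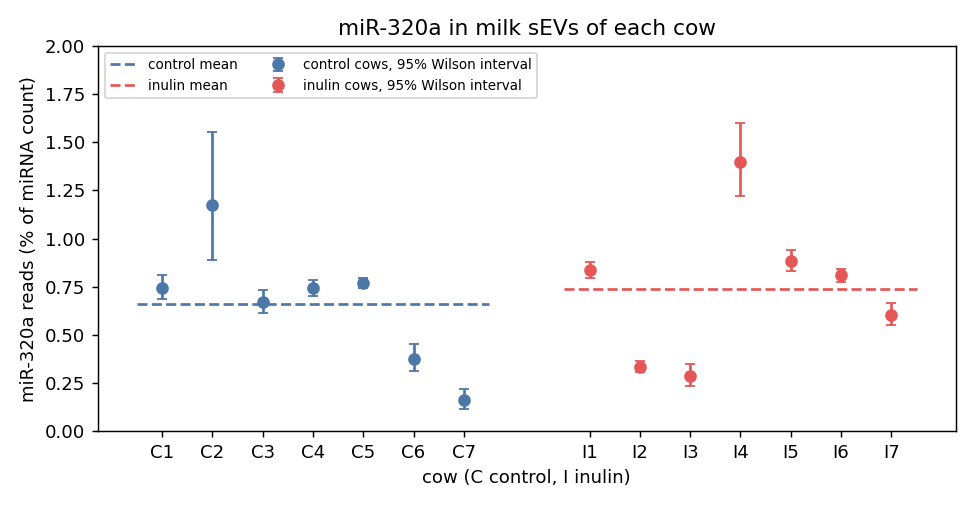
Share of miR-320a reads in the total miRNA count of each cow (y axis, percent) for the 7 control cows (C1 to C7) and the 7 inulin cows (I1 to I7). Points are cows, bars are 95% Wilson intervals and dashed lines are group means, which differed by 0.0736 percentage points while the cows of a group ranged from 0.160% to 1.18% and from 0.286% to 1.40%.

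The mean share was 0.663% ± 0.322 for control cows and 0.736% ± 0.378 for inulin cows (SD, n = 7 each). The difference of 0.0736 percentage points was smaller than the SD of either group. The means were not separated (two-sided exact permutation test over 3432 assignments of the cows, p = 0.698), and the 95% interval of the difference ran from -0.338 to 0.482 percentage points. On the log2 scale of CPM, the count scaled to a common library size with TMM normalization, the means were 12.47 ± 1.23 and 12.69 ± 0.89 (SD, n = 7 each), a difference of 0.22 (exact permutation test, p = 0.723). The 95% interval of this difference ran from -1.0 to 1.48, that is, from 0.50-fold to 2.79-fold, so a change of that size in either direction was within the error of 7 cows per group. In the edgeR quasi-likelihood fit across 210 miRNA/precursor pairs with at least 10 counts, the log2 fold change of miR-320a with inulin was 0.095 (standard error 0.50, 95% interval -0.93 to 1.12, adjusted p = 0.985 from edgeR). A pair was called where its P, before adjustment, was under 0.05 and its log2 fold change beyond 1 in either direction. This held for 9.05% of all tested pairs, 2.86% higher and 6.19% lower with inulin, and miR-320a was not among them. A smaller P than that of miR-320a was found for 173 of the 210 pairs. Of the alternatives that kept all cows, TMMwsp scaling gave the highest log2 fold change, 0.67 (adjusted p = 0.911 from edgeR), while it moved the median of all pairs from -0.40 to 0.0725.

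The position of miR-320a among the miRNA of a cow did not separate the groups either. Counted with 1 precursor per mature miRNA, it had rank 7 at best in each group, a median rank of 8 for control and 9 for inulin cows, and a lowest rank of 19 in control cow 7 and 14 in inulin cow 3. Its mean was 10.3 ± 4.46 and 9.57 ± 2.82, respectively (exact permutation test, p = 0.769; SD, n = 7 each). With the reads of each mature miRNA entered once in the total, miR-320a made up 0.993% ± 0.439 of a control library and 1.2% ± 0.563 of an inulin library (SD, n = 7 each).

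The comparison did depend on what miR-320a was measured against. The let-7 family, which controls developmental timing and cell differentiation, filled from 41.1% to 91.2% of the total count of a cow. That total enters a mature miRNA once for each of its precursor lines. The lines of let-7a-5p have nearly equal counts, so its reads weigh more than once in the let-7 share. In control cow 4 the total was 177212, and 138221 with 1 precursor per mature miRNA. In control cow 5 these totals were 415020 and 233926, and in inulin cow 2 they were 176076 and 95608. When let-7 was left out of the total, miR-320a made up from 1.26% to 4.51% of the other counts in control cows, with a median of 2.27%, and from 2.36% to 7.03% in inulin cows, with a median of 3.80%. All 7 inulin cows were above the control median, and the means were 2.33% ± 1.07 and 4.04% ± 1.65 (SD, n = 7 each). The difference of 1.72 percentage points (95% interval 0.130 to 3.36) passed 0.05 without adjustment (exact permutation test, p = 0.0373), but not when any 1 of 10 cows was left out. Without control cow 1, 2, 3, 4, 6 or 7 or inulin cow 2, 4, 6 or 7, the difference ran from 1.22 to 1.76 percentage points (exact permutation tests, p from 0.0542 to 0.0740). Without control cow 5, which lay above the other control cows, it was 2.08 (exact permutation test, p = 0.00466), and without inulin cow 1, 3 or 5 it ran from 1.85 to 2.00 (exact permutation tests, p from 0.0210 to 0.0390). With 1 precursor per mature miRNA it was 2.42 (exact permutation test, p = 0.0321). Beside it, miR-1246 and miR-423-5p together filled 58.3% ± 28.5 of the counts outside let-7 in control cows and 34.8% ± 22.5 in inulin cows (SD, n = 7 each). Leaving out miRNA that fill less of the inulin libraries shifts the comparison towards control cows by construction, and they were chosen after seeing the data. In the same way, leaving out let-7 shifts it towards inulin cows, as the mean let-7 share was 69.0% in control cows and 80.0% in inulin cows. With miR-1246 and miR-423-5p left out as well as let-7, the direction turned, to 7.37% ± 3.89 in control cows and 6.64% ± 2.45 in inulin cows (exact permutation test, p = 0.686; SD, n = 7 each). A difference past 0.05 was therefore seen against 1 of these 3 denominators, and the last of them is no independent test. The share outside let-7 was itself an alternative to the share of the total. Its p was not adjusted for the other measures tried, of which log2 CPM, rank and the 7 ratios within cows given below did not separate the groups.

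**Figure D2:**
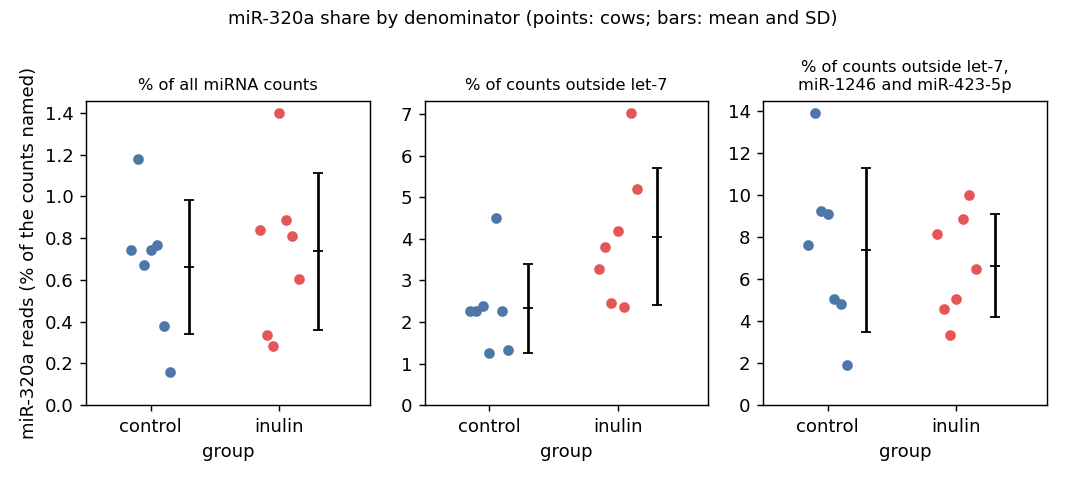
Share of miR-320a reads (y axis, percent) in the total miRNA count, in the counts outside let-7, and in the counts outside let-7, miR-1246 and miR-423-5p. Points are the 7 control and 7 inulin cows and bars are the mean and SD; the inulin mean was higher in the middle panel (4.04% against 2.33%) and lower in the right panel (6.64% against 7.37%).

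A ratio within a cow does not depend on any total. miR-320a was therefore set against 7 miRNA of similar level, all made by the Drosha and Dicer route, on the log2 scale of reads plus 0.5. Over 14 cows miR-320a exceeded miR-191 by 1.23 ± 1.00 (SD; adjusted p = 0.00513, exact sign-flip permutation test, Benjamini-Hochberg over 7 ratios), which is 2.35-fold, and it was higher in 12 of 14 cows. It exceeded miR-30a-5p by 1.64 ± 1.41 (SD, n = 14 cows; adjusted p = 0.00641, same permutation test), or 3.12-fold, and it was higher in 11 of 14 cows. The levels of let-7g, miR-16a, miR-26a, miR-200c and miR-151-5p were not separable from that of miR-320a. Their mean log2 ratios ran from -0.27 for let-7g to 0.40 for miR-151-5p (adjusted p from 0.229 to 0.796, exact sign-flip permutation test), with SDs from 0.84 to 1.26. In order of level, miR-320a thus stood above miR-191 and miR-30a-5p and among the 5 others. Ligation in library making favours some sequences over others, so such an order describes reads.

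**Figure D3:**
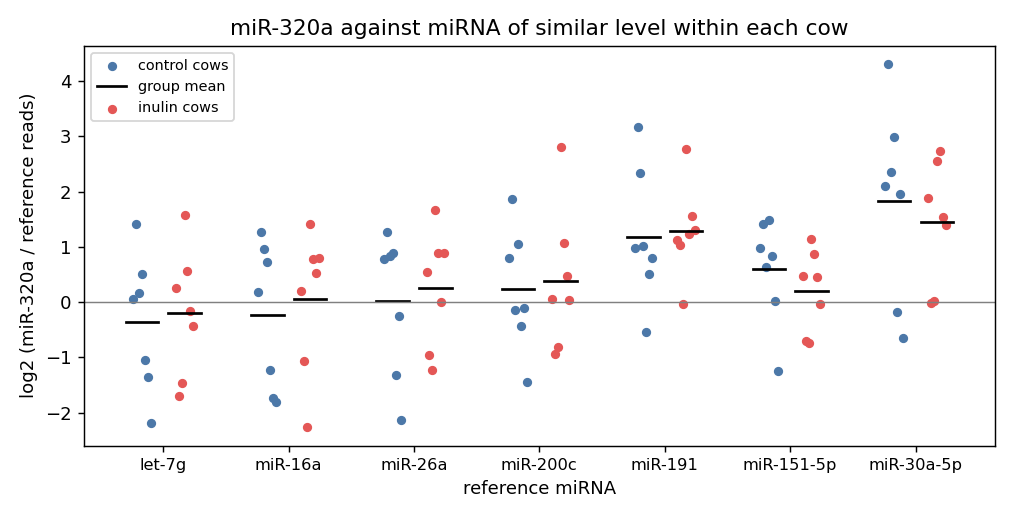
Log2 ratio of miR-320a reads to the reads of 7 miRNA of similar level within each cow (y axis), for 7 control and 7 inulin cows; black lines are group means and 0 marks equal reads. The ratios to miR-191 and miR-30a-5p lie mostly above 0, and the points of both groups overlap for each reference.

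None of the 7 ratios separated the inulin from the control cows (adjusted p = 0.861 for each, exact permutation tests of the difference in means, Benjamini-Hochberg over 7 ratios). The differences between groups ran from -0.39 for the ratio to miR-30a-5p to 0.29 for the ratio to miR-16a, and the narrowest 95% interval, for miR-151-5p, was -1.34 to 0.62. For miR-200c, a marker of epithelial cells, the log2 ratio was 0.23 ± 1.09 in control cows and 0.39 ± 1.28 in inulin cows (SD, n = 7 each). For miR-151-5p the difference was -0.38, and miR-151-5p itself made up 0.264% to 0.433% of the counts in control cows and 0.480% to 0.627% in inulin cows. That gap between the groups was noticed after its values were seen, and in the edgeR fit its log2 fold change was 0.59 (adjusted p = 0.835 from edgeR). The shares of the other references overlapped between the groups, and how many further miRNA have such a gap was not counted.

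The level of miR-320a had an SD of 1.04 in log2 CPM over 14 cows, and the counting error of a single cow was between 0.0256 and 0.237 on that scale. Among the 31 mature miRNA with at least 1 count in every cow, which hold 29 distinct count sets, miR-320a had the ninth highest mean level and the SD of rank 19 from the lowest. The median SD was 0.77. Of the 8 miRNA with a higher mean level, 2 had a larger SD, miR-1246 with 2.80 and miR-423-5p with 1.40, and let-7b had the smallest, 0.34. Within the groups the SD of miR-320a was 1.23 in control cows and 0.89 in inulin cows. Its spread was thus wider than that of most miRNA of comparable level, such as miR-26a with 0.75 and miR-200c with 0.70.

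**Figure D4:**
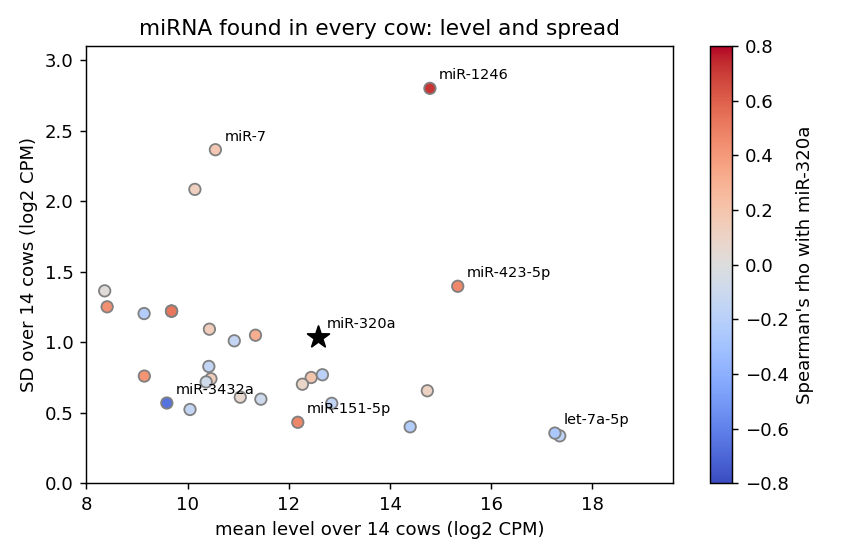
Mean level (x axis, log2 CPM) and SD (y axis, log2 CPM) over 14 cows of the 31 mature miRNA found in every cow, coloured by Spearman's rho with miR-320a, which is the star. miR-320a (mean 12.58, SD 1.04) lies above let-7g, miR-16a, miR-26a and miR-200c, which have similar mean levels and smaller SDs.

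No relation of the level of miR-320a to depth passed the test. Against the log10 of the total count, Pearson's r of its log2 CPM was 0.15 (permutation p = 0.615, adjusted p = 0.845) and Spearman's rho was 0.0945 (permutation p = 0.752, adjusted p = 0.902; 6 relations over 14 or 7 cows). Leaving out control cows 2 and 5, the 2 farthest from the median depth, gave r = 0.45. Among control cows r was 0.16 (exact permutation p = 0.704, adjusted p = 0.845), but 0.92 without cows 2 and 5, which leaves 5 cows. Among inulin cows r was 0.0594 (exact permutation p = 0.897, adjusted p = 0.897; n = 7), and 0.37 without cows 3 and 4. The shallowest library, control cow 2, had the highest control share, and the deepest, control cow 5, had a share near the control median.

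The level of miR-320a was lower in cows where let-7 filled more of the total count, a relation that passed 0.05 after adjustment by rank and not by Pearson's r. Pearson's r of its log2 CPM with the let-7 share was -0.64 (permutation p = 0.0140, adjusted p = 0.0839) and Spearman's rho was -0.71 (permutation p = 0.00608, adjusted p = 0.0365; n = 14 cows). Leaving out control cows 2 and 4, the 2 farthest from the median let-7 share, gave r = -0.63 and rho = -0.57. Among control cows r was -0.73 (exact permutation p = 0.0571, adjusted p = 0.114) and rho -0.86 (exact permutation p = 0.0238, adjusted p = 0.0714). Among inulin cows r was -0.75 (exact permutation p = 0.0510, adjusted p = 0.114) and rho -0.68 (exact permutation p = 0.110, adjusted p = 0.219; n = 7 each), and without cows 4 and 5 r was -0.54 and rho -0.20. Both measures are relative to the total of the same cow, the log2 CPM after TMM scaling, so they are bound to each other. How much of the relation comes from this was not tested. Single let-7 members found in every cow were also compared by their own log2 CPM. There rho with miR-320a ran from -0.26 (let-7a-5p) to 0.14 (let-7d), and r from -0.13 (let-7c) to 0.32 (let-7d). The let-7 share itself, with every precursor line counted, was 69.0% ± 18.2 in control cows and 80.0% ± 11.9 in inulin cows (SD, n = 7 each). An exact permutation test did not separate the groups (p = 0.198).

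**Figure D5:**
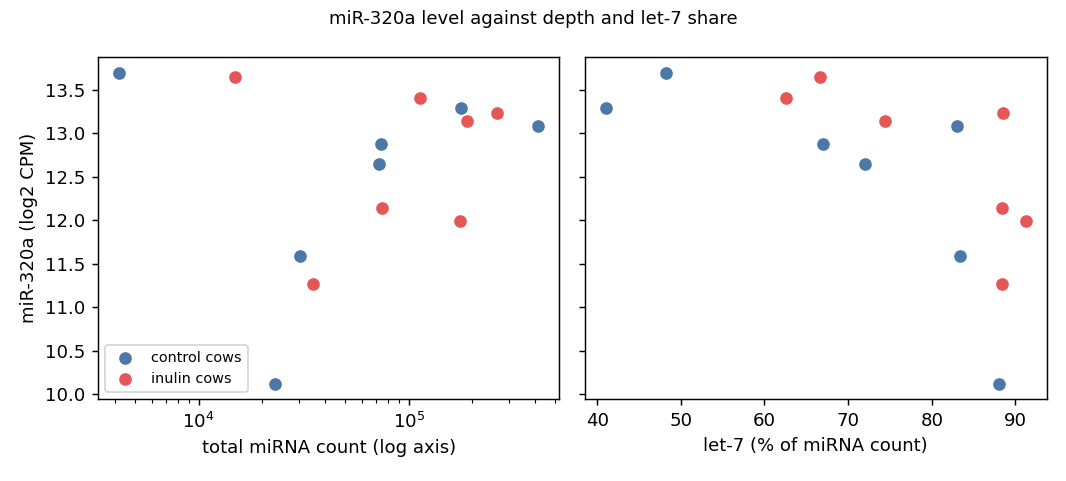
Level of miR-320a (y axis, log2 CPM) against the total miRNA count on a log axis (left) and against the let-7 share in percent (right), with 1 point for each of 7 control and 7 inulin cows. Over all cows the points show little order with depth (r = 0.15) and fall with the let-7 share (r = -0.64).

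By rank, the miRNA most like miR-320a over the 14 cows was miR-1246 (Spearman's rho = 0.71, Pearson's r = 0.62). Both were low in inulin cows 2 and 3 and high in control cows 2 and 4 and inulin cow 5. The rho was 0.61 within the control cows and 0.71 within the inulin cows, and it ranged from 0.66 to 0.77 with each cow left out in turn. With both miRNA scaled to the counts that remain without them, it was 0.81. Next came miR-2284x, miR-2284y and miR-2285av, which share 1 set of counts (rho = 0.53) and had the higher Pearson's r, 0.77. The miRNA least like miR-320a by rank were miR-3432a (rho = -0.66, r = -0.69), let-7a-5p (rho = -0.26, r = 0.0215) and let-7f (rho = -0.22, r = 0.0469). Of these, only miR-3432a was negative by both measures. The median rho over the 30 other miRNA was 0.10, and these values are descriptions over cows that share their totals.

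Of 7 miRNA known for routes outside the canonical one, 3 had a line in the table: miR-320a, miR-484 and miR-877. The miR-484 hairpin is also made without Drosha, and miR-877 is a mirtron, a short intron that folds into a hairpin once it is spliced out. The others of the list were the mirtrons miR-1224, miR-1225 and miR-1226 and the Dicer-independent miR-451 of red blood cells. miR-320a held 97.3% of the reads of the 3 miRNA. In the annotation MIR877 lies within ABCF1, and MIR484 lies between MARF1 and NDE1.

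The other non-canonical miRNA were rare beside it. miR-877 had 282 reads in 11 cows, 1 for each 41.9 reads of miR-320a over all libraries. Its count ran from 0 to 49 in control cows, with a median of 11, and from 0 to 60 in inulin cows, with a median of 17. The groups overlapped, and the ratio of miR-320a to miR-877 varied widely between cows, from 3.36 in control cow 7 to at least 196.0 in inulin cow 2. In that cow miR-877 had 0 reads, against a floor of 3 counts, in a total count of 176076 over all lines. With 1 precursor per mature miRNA this total was 95608. miR-484 had 42 reads, 30 in 3 control cows and 12 in 2 inulin cows, and in the other cows 0 reads allow a share of up to 0.00113% to 0.0720%. With inulin, the log2 fold changes were -0.96 (standard error 1.31) for miR-484 and -0.26 (standard error 0.91) for miR-877, both with an adjusted p = 0.985 from edgeR. Of the 3 miRNA, 0 were called by edgeR beside 9.05% of all tested pairs, too few to set the list apart, and 0 had an unadjusted P under 0.05 with edgeR, DESeq2 or limma-voom, and their median log2 fold change of -0.26 stood beside -0.40 over all tested pairs.

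Markers of the cells that can shed vesicles into milk were read in the same libraries. All 5 epithelial markers (the miR-200 family with miR-141 and miR-429) were found in both groups, with a summed share of 0.336% to 1.35% in control cows and 0.256% to 0.879% in inulin cows. Of the 6 leukocyte markers 6 were found in control cows and 5 in inulin cows, with a summed share of 0% to 0.0860% and 0.00454% to 0.0486%, respectively. The remaining marker, miR-142-5p, was at 0 in inulin cows and had reads only in control cows 4 and 5. These libraries had the most mature miRNA detected of all cows, 150 and 220. Inulin cows 6 and 1 had larger total counts (265214 and 189928) than control cow 4 (177212) but 0 reads of miR-142-5p. In the edgeR fit the log2 fold change of miR-142-5p was -4.46 (standard error 1.40), and it was among the called pairs. Calls use P before adjustment, and 0 of the 210 tested pairs passed 0.05 after it. Whether detection accounts for the difference in miR-142-5p was not tested. Over all miRNA, the paper counted fewer in the inulin group than in the control group, but it reported no significant effect of inulin on this number. Of the 2 erythrocyte markers, miR-486 had 4 reads in control cows and 1 in inulin cows, and miR-451 had no line in the table. The milk-abundant miR-148a had 41 and 31 reads. Over the 14 cows the level of miR-320a had a rho of 0.44 with that of miR-141 and of 0.0813 with that of miR-200c, the epithelial markers found in every cow, and the part of cell origin in its level was not tested.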

How the data were processed

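Small RNA of milk sEVs was sequenced in 14 cows. Per the study's methods, the authors kept reads of a set length range after adapter trimming, filtered them by quality, annotated them against Rfam and miRBase and counted them with miRDeep2, and the submitters' processing notes name the build ARS-UCD 1.2. The authors deposited raw counts per miRNA/precursor and, beside them, rpm, the same counts relative to the total of the cow. These differed from recomputed values by at most 0.005. The deposited length in nt, another unit, was copied. Of the columns, 0 were left without a cow.

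The counts were tested with edgeR 4.0.16 (R 4.3.3; TMM, glmQLFit, at least 10 counts over all cows, prior count 2 for log2 CPM), and p-values were adjusted over all tested pairs. The standard error is the fold change over the root of F. Single values used exact permutation tests, with intervals by inversion, and correlations over 14 cows 100000 permutations. DESeq2 1.42.0, which the paper used, limma 3.58.1, other scalings, filters, shared-read rules, thinning to 4165 counts, omission of each cow and the cow number as a block were alternatives. Other steps ran in Python 3.11.15 with SciPy 1.17.1, NumPy 2.4.6 and pandas 2.3.3, and figures in matplotlib 3.10.9. Named miRNA were miR-320a, the non-canonical list, 7 references of similar level, and the 3 most and 3 least like miR-320a by rho (more where tied). The rule also named miRNA with the seed of miR-320a, which were not analysed here. These and all lists were chosen with earlier results of these data known. RefSeq names come from ARS-UCD2.0, another build, so no positions are given. No batch is named in the labels.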

Additional observations from a re-analysis of the deposited data

Results flagged for a closer look

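For 30 groups of 7 cows, the gap of the highest or lowest cow to the next was divided by the range (Dixon's test, 95% limit 0.568). Chance alone passes that limit in about 1.5 of 30 groups where values are normal and groups independent, and 4 values passed it. Raw totals, shares and tied ranks of the same cows need not be so, and the values are given as descriptions. Control cow 7 had the lowest rank of miR-320a, 19, against 12 for the next control cow (ratio 0.583). In the share of miR-320a outside let-7, control cow 5 had 4.51% against 2.40% for the next control cow (ratio 0.650). The same cow had the highest total count, 415020 against 177212 (ratio 0.579), and the highest epithelial marker share, 1.35% against 0.751% (ratio 0.592). The share and the log2 CPM of miR-320a themselves had no such cow in either group.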

How the results depend on the processing

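The group difference of miR-320a passed no threshold under any alternative, except as its share outside let-7. Its edgeR log2 fold change was 0.21 in 1 thinning of the counts to the lowest total, ran from -0.35 to 0.21 over 20 such draws (chosen after seeing the data; below 0 in 13), and ranged from -0.10 to 0.49 with each cow left out, negative without control cow 6 or 7 or inulin cow 4 or 5. With each cow left out, the difference in share ranged from -0.0364 to 0.159 percentage points, that in log2 CPM from -0.18 to 0.45 and that in rank from -1.45 to 0.738. The share outside let-7 was 1.72 percentage points higher with inulin and between 1.22 and 2.08 with each cow left out. It was no longer past 0.05 without any 1 of 10 cows (control cows 1, 2, 3, 4, 6 and 7, inulin cows 2, 4, 6 and 7). It turned to -0.731 without miR-1246 and miR-423-5p, which were picked from these data and had a smaller mean share with inulin. The mean share of let-7 was larger with inulin, so leaving it out shifts the comparison the other way. The differences in log2 ratio ranged from -0.15 to 0.45 (let-7g), -0.18 to 0.43 (miR-191), -0.25 to 0.43 (miR-200c), -0.11 to 0.49 (miR-26a) and -0.81 to 0.0167 (miR-30a-5p), and the level against miR-16a from -0.20 to 0.0809. The correlation with the let-7 share passed 0.05 after adjustment with 1 precursor per mature miRNA (r = -0.74) and without inulin cow 6, and ranged from -0.72 to -0.59 with each cow left out, while that with depth ranged from -0.0306 to 0.47. The log2 fold change of miR-877 was 0.0664 with TMMwsp and -0.48 to 0.0188 with each cow left out. The number of called pairs was 19, against 9 with DESeq2, 75 without a filter, 3 with filterByExpr, 4 after thinning (1 to 7 over the 20 draws) and 7 with the cow number as a replicate block. Under that block the log2 fold change of miR-320a was 0.23 (adjusted p = 0.991 from edgeR), the cows with the same number are different animals whose deviations correlated between -0.33 and 0.26, and 2 of 14 cows correlated best with their own number. miR-484 could not be fitted with filterByExpr, nor miR-484 and miR-877 after thinning, where they fell under 10 counts. TMMwsp moved the median log2 fold change of all pairs from -0.40 to 0.0725, and miR-320a stood 0.50 above the median with TMM, 0.59 above it with TMMwsp, 0.85 with limma-voom and 0.00649 with filterByExpr. The cause of these shifts was not tested. In all, 382 of 426 alternative values kept their direction and side of the threshold.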
